A study of Mus musculus with 4 samples.

Results

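The cells described here were cardiomyocytes of day 11 mouse gastruloids that held *Nppa* RNA and little *Myl2* RNA. They were chosen by their own counts of unique molecular identifiers (UMIs, each of which stands for 1 captured RNA molecule). A cell needed 2000 or more UMIs, under 20% of them from mitochondrial (mt-) genes, 30 or more *Myl7* UMIs per 10000 and 2 or more UMIs of *Tnni3* plus *Ryr2*. It also needed 1 or more *Nppa* UMIs, under 20 *Myl2* UMIs per 10000 and under 6 UMIs of *Shox2* plus *Vsnl1* per 10000. Of 9584 barcodes at day 11, 8730 passed the 2 quality limits and 1543 of these passed the limits on *Myl7*, *Tnni3* and *Ryr2*, and are called cardiomyocytes below. The *Nppa*-positive, *Myl2*-low cells numbered 159, which is 10.3% of the cardiomyocytes (95% Clopper-Pearson interval 8.83 to 11.9%) and 1.82% of the cells that passed the quality limits. The other 1384 cardiomyocytes fell into 549 *Nppa*-negative, *Myl2*-low cells, 337 *Myl2*-high cells (20 or more *Myl2* UMIs per 10000) and 498 *Shox2*/*Vsnl1*-high cells (6 or more UMIs of the pair per 10000, whatever their *Myl2*).

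The study grew gastruloids, which are aggregates of mouse embryonic stem cells, and sequenced single cells at days 4, 5, 6 and 11 with 1 library per day and 31330 barcodes in all. All cells came from the wild type Zx1 line, were given a pulse of the Wnt agonist Chiron and, from day 4, the cardiogenic factors bFGF, VEGF and ascorbic acid. These factors were given for a limited time only. The gastruloids sampled at day 11 had by then been moved to medium without them. Each library pooled the cells of several gastruloids of this 1 line, and no untreated group and no second culture were analysed here. With 1 library per day no test between groups could be made, and every interval below is at 95% and covers counting error only.

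*Nppa* encodes the precursor of atrial natriuretic peptide, a hormone that lowers blood pressure by making the kidney shed salt and water. In the embryonic heart it is made by the working myocardium of the atria and of the ventricular trabeculae, and is kept off in the nodes, the atrioventricular canal and the outflow tract. Its promoter is a standard example of joint control by the cardiac factors NKX2-5, GATA4 and TBX5. *Myl2* and *Myl7* encode regulatory light chains of myosin: *Myl2* marks the ventricles, whereas *Myl7* is made throughout the early heart tube and later in the atria.

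The stretches of 250 bases before the start sites of the 2 genes that set these cells apart are shown because the rule turns on them. They come from the RefSeq promoter table for GRCm38.p6. The *Nppa* stretch is chr4:148000472-148000721 and the *Myl2* stretch chr5:122092474-122092723, both on the plus strand and both directly upstream of the annotated gene. For *Myl2* the table lists 2 starts, and the stretch before the upstream one is shown, with no measure here of which start these cells use. Capitals mark matches, on either strand, to a T-box motif (AGGTGT), an NKX2-5 motif (TNAAGTG) and a GATA motif (GATAA).
Nppa: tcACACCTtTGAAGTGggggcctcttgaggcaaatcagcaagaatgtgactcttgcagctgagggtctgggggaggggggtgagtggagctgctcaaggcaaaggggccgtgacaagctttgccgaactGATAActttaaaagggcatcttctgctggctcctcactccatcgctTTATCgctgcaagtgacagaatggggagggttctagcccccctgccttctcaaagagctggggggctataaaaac
Myl2: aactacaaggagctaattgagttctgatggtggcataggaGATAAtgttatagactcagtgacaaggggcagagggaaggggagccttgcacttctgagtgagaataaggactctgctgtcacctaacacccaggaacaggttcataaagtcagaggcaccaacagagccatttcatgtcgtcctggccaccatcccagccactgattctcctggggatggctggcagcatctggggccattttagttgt
The *Nppa* stretch held 4 matches. The T-box letters lay 248 to 243 bases before the start on the minus strand, with the NKX2-5 letters on the plus strand at 241 to 235. GATA letters followed at 121 to 117 and, on the minus strand, at 75 to 71. The *Myl2* stretch held 1 match, a GATA motif at 210 to 206. Of all 32851 promoters of this table, cut to the same 250 bases, 11.8% held the T-box letters, 10.1% the NKX2-5 letters and 22.6% the GATA letters, so each of these matches is common, and a match is a description of letters only.

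The day 11 library was the shallowest of the 4, with a median of 11318 UMIs per barcode. Any pair of libraries shared 5 to 23 barcodes, and 2 of the 159 cells carried a barcode found in another library. A doublet score, set by likeness to simulated mixtures of cells, put 30 of the 159 cells (18.9%) among the 8% of day 11 cells with the highest scores. The same was true of 20.6% of *Nppa*-negative, *Myl2*-low cells, 13.6% of *Myl2*-high cells and 12.2% of *Shox2*/*Vsnl1*-high cells. No cell was removed for this score in the values below.

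The label was checked against the general cardiomyocyte markers first. Every one of the 159 cells held UMIs of *Actc1*, *Tnnt2* and *Tnnc1*, which encode parts of the contractile filaments, and of *Myh6*, the fast myosin heavy chain. UMIs of the giant sarcomere protein gene *Ttn* were found in 158 cells, of *Actn2* (alpha-actinin) in 154 and of the cardiac transcription factor gene *Nkx2-5* in 146. Of the other markers given for these cells, *Itga6* had a UMI in 143 of 159 cells. After thinning to 5000 UMIs, *Actc1* was found in 100% of the cells and *Myh6* in 98.7%, against 13.1% and 3.79% of endothelial and 16.3% and 3.26% of neuronal cells, as defined below. In the summed cells *Actc1* stood at 9911 CPM, against 62.7 and 197 CPM in these. The set held the general markers of cardiomyocytes far above those cells, and single cells that also held markers of other types are given below.

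The *Nppa* values that chose the cells were very unequal. The lowest cell held 1 UMI, the median 7 and the highest 468, which as a level per 10000 UMIs is 0.102, 2.88 and 138. There were 35 cells with a single *Nppa* UMI, 55 with 2 to 9, 51 with 10 to 99 and 18 with 100 or more. The 69 cells with 10 or more UMIs held 95.6% of the 5664 *Nppa* UMIs of the set, and the set held 78.0% of all 7262 *Nppa* UMIs of the day 11 library. *Nppa* RNA was thus concentrated in a small part of the cardiomyocytes, and most of it in fewer than 70 cells.

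The other values used by the rule are given once, as a description. The highest *Myl2* level inside the limit was 19.7 per 10000 and the lowest outside it, among 48 cells that failed this limit alone, was 20.8. For *Shox2* plus *Vsnl1* these were 5.93 and 6.47 per 10000, with 38 cells that failed this limit alone. For *Myl7* the lowest level inside was 30.8 and the highest outside 23.8 per 10000, with 5 such cells. For *Tnni3* plus *Ryr2* the lowest count inside was 2 and the highest outside 1, with 2 such cells. Few cells stood near the *Myl2* limit: 83 of the 159 cells held no *Myl2* UMI, and 3 in 4 held under 0.831 per 10000. *Myl7* ran from 30.8 through a median of 217 to 526 per 10000, against medians of 128 in *Nppa*-negative, *Myl2*-low, 80.7 in *Myl2*-high and 182 in *Shox2*/*Vsnl1*-high cells.

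**Figure D1:**
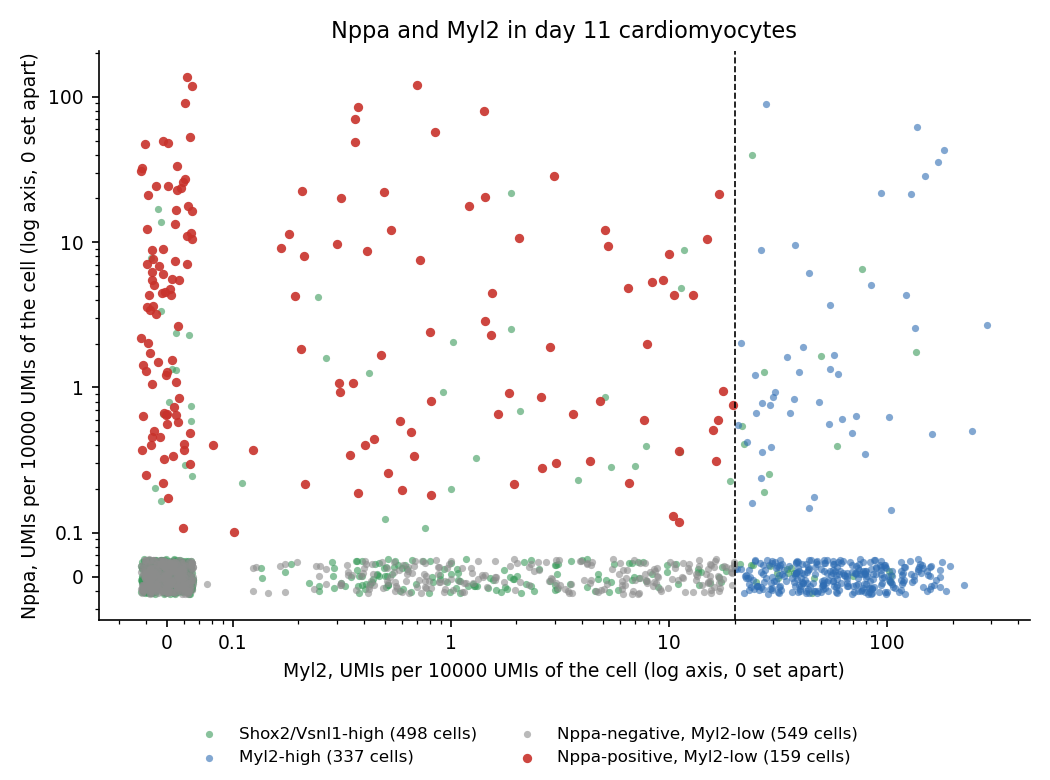
*Nppa* (vertical) against *Myl2* (horizontal) in UMIs per 10000 UMIs of the cell, both on log axes with cells at 0 set apart and spread slightly, for all 1543 day 11 cardiomyocytes; each point is 1 cell, colours are the 4 groups, and the dashed line is the *Myl2* limit of 20 per 10000. The 159 *Nppa*-positive, *Myl2*-low cells run from 0.102 to 138 *Nppa* UMIs per 10000, and 83 of them sit at 0 *Myl2*; 48 *Myl2*-high and 48 *Shox2*/*Vsnl1*-high cells also hold *Nppa*.

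The limit of 1 UMI is easier to pass in a deep cell. The *Nppa*-positive, *Myl2*-low cells had a median of 31118 UMIs per cell, against 17943 in *Nppa*-negative, *Myl2*-low, 20921 in *Myl2*-high and 20493 in *Shox2*/*Vsnl1*-high cells. Among the 708 *Myl2*-low and *Shox2*/*Vsnl1*-low cardiomyocytes the share with *Nppa* was 9.82% (11 of 112) in cells of 2000 to 10000 UMIs and 44.1% (63 of 143) in cells of 40000 or more. Whether a cell counted as *Nppa*-positive therefore went with its depth, and levels are also given below by strata of *Nppa* level. When every cell was thinned at random to 5000 UMIs, with the 93 shallower cardiomyocytes left out, *Nppa* was found in 15.7% of *Myl2*-low, *Shox2*/*Vsnl1*-low cells (13.0 to 18.7%), 7.84% of *Myl2*-high cells (5.14 to 11.4%) and 4.65% of *Shox2*/*Vsnl1*-high cells (2.94 to 6.96%). Without thinning these shares were 22.5%, 14.2% and 9.64%. Cells that should lack *Nppa* held it far less often: 0.211% of 475 endothelial cells (3 or more UMIs of *Pecam1* plus *Cdh5* and not cardiomyocytes) and 0.787% of 889 neuronal cells (3 or more UMIs of *Stmn2* plus *Elavl3*) after thinning, and 0.61% and 1.21% before it, at median depths of 22690.5 and 10498 UMIs.

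Over all barcodes the libraries of days 4, 5, 6 and 11 held 5, 44, 62 and 7262 *Nppa* UMIs. At days 4 and 5 no cell met the cardiomyocyte limits. At day 6, 416 cells met them and 13 were *Nppa*-positive and *Myl2*-low, or 3.13% (1.67 to 5.28%). The most *Nppa* in any of these 13 cells was 5 UMIs, and no day 6 cardiomyocyte reached 10 UMIs although the median depth of the 13 was 43966 UMIs. After thinning to 5000 UMIs, 1.23% of day 6 cardiomyocytes (0.4 to 2.84%) and 10.3% of day 11 cardiomyocytes (8.82 to 12%) held *Nppa*. Day and library cannot be told apart here. The 13 day 6 cells were also compared in their other genes, as CPM, which is 100 times the number of UMIs of a gene per 10000 UMIs of the summed cells. *Myh6* stood at 339 CPM (298 to 384), against 535 CPM (523 to 547) in all 416 day 6 cardiomyocytes, which include the 13. *Itga6* stood at 170.1 CPM (141 to 203) against 282 CPM (274 to 291). Both markers were thus lower in the *Nppa*-positive, *Myl2*-low cells of day 6, whereas they were higher in those of day 11. The 416 cells had a median depth of only 26398 UMIs. The 13 cells held 640 against 224 CPM of listed endothelial genes and 145 against 48.0 CPM of endoderm genes. They held less of macrophage and blood genes, 12.6 against 78.4 CPM, and of filament genes, 31743 against 36143 CPM. The part of depth and of other cell types was not tested. *Casq1* stood at 44.6 CPM (30.5 to 63.0) against 46.8 CPM, and *Sln* had no UMI (0 to 5.14 CPM).

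The 159 cells were then compared with the 1384 other cardiomyocytes over all genes. A gene was counted when it reached 20 CPM in either set and was not a gene of the rule, an mt- gene or a ribosomal protein gene, and was called higher or lower when the ratio of CPM plus 10 passed 1.5-fold either way. Of 5572 genes counted, 50 were higher in the *Nppa*-positive, *Myl2*-low cells (0.897%) and 82 lower (1.47%). This is a description of 1 library, and these percentages are the background against which each gene list is read. Leaving out, for each of the 50 higher genes, the 1 cell that held most of its UMIs kept 39 of them past the limit and lost 11. The median log2 ratio over all counted genes was -0.04.

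Among genes of 100 CPM or more, the highest ratio was that of *Casq1*. *Casq1*, a calcium-storing protein of the sarcoplasmic reticulum, stood at 668 against 248 CPM, 2.69-fold higher (2.59 to 2.79). *Sln*, which encodes sarcolipin, an inhibitor of the calcium pump made mainly in atria, stood at 322 against 127 CPM, 2.54-fold higher (2.41 to 2.68). Both genes are also used in skeletal muscle. *Mest*, an imprinted gene expressed from the paternal copy, stood at 587 against 225 CPM, and *Itga6*, the alpha 6 chain of laminin-binding integrins, at 258 against 107 CPM. *Ankrd1*, a stretch-responsive cofactor of the sarcomere and nucleus, stood at 209 against 109 CPM, *Smpx*, a small protein of striated muscle, at 407 against 238 CPM and *Palld*, an actin-bundling protein, at 509.6 against 301 CPM. The others of the 10 highest, *Pam*, *Myh6* and *Cav1*, are described with their groups below. Each of these genes had UMIs in 83 or more of the 159 cells, with *Sln* the least widespread.

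The 10 lowest ratios were led by *Pnmt*, the enzyme that makes adrenaline, at 15 against 111 CPM. The smooth muscle actin gene *Acta2*, which early cardiomyocytes also use, stood at 708 against 1943 CPM, 2.74-fold lower. *Myh7*, the slow myosin heavy chain of ventricles, stood at 381 against 1043 CPM, 2.74-fold lower, and *Pln* (phospholamban), the pump inhibitor of ventricles, at 193 against 442 CPM, 2.29-fold lower. Of these, *Myh7* and *Pln* are in the ventricular list. The others were *Clu* (clusterin, an extracellular chaperone) at 58.0 against 122 CPM, *Gm49708* at 74.8 against 152 CPM, *Prnp* (prion protein), 1.97-fold lower, and *Lbh*, a cofactor of limb and heart development, at 139.8 against 267 CPM. *Igfbp5*, which binds insulin-like growth factors, stood at 652 against 1176 CPM and *Meg3*, an imprinted long non-coding RNA, at 201 against 366 CPM.

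**Figure D2:**
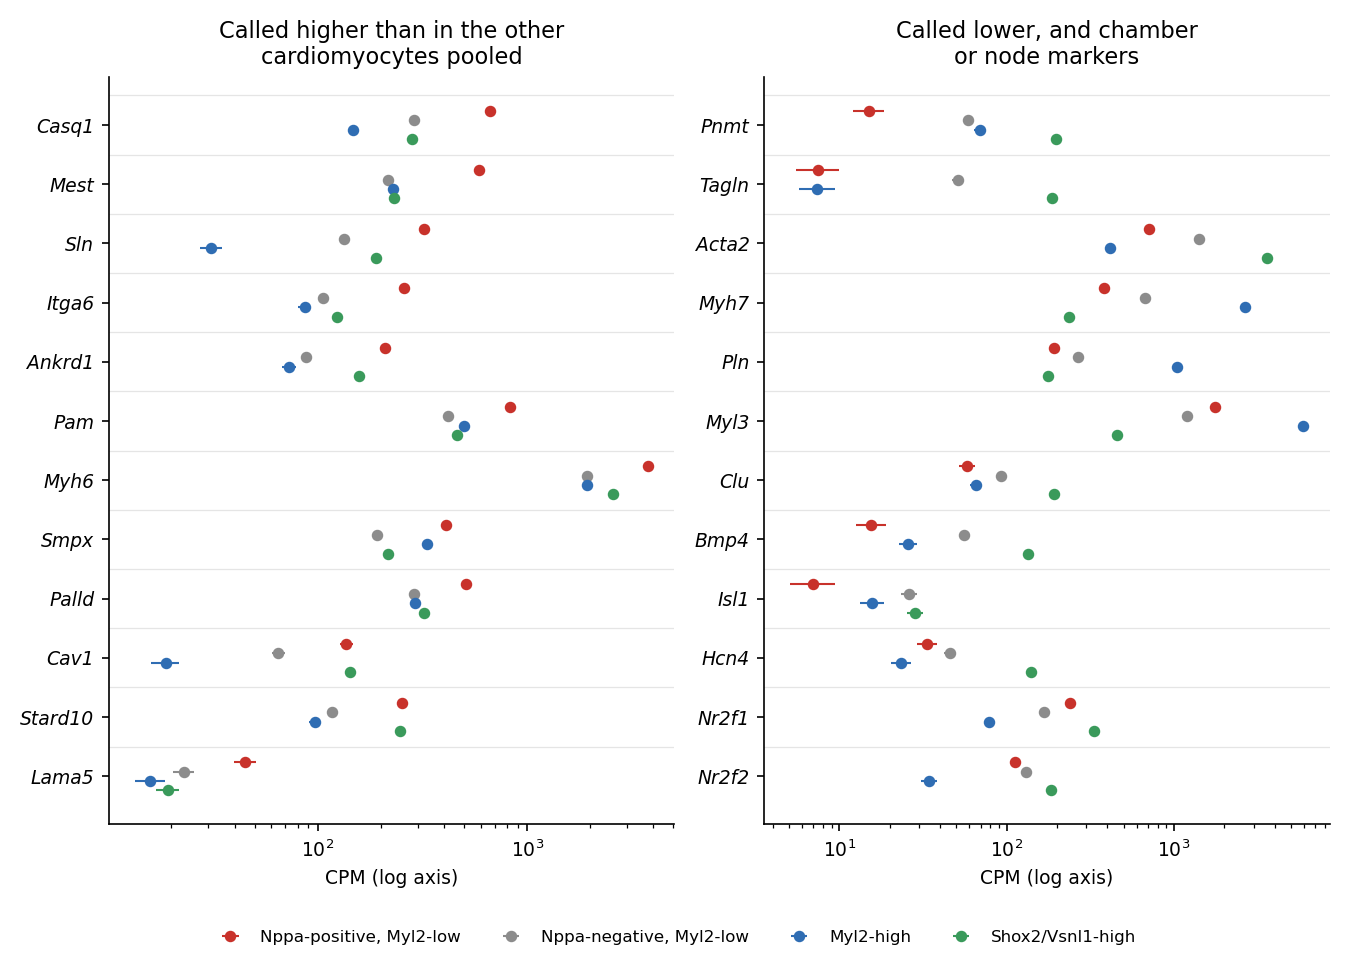
CPM (horizontal, log axis) of 24 genes in the 4 groups of day 11 cardiomyocytes; points are summed levels and bars 95% Poisson intervals, which cover counting error only. *Itga6* lies at 258 CPM in the *Nppa*-positive, *Myl2*-low cells and at 86.6 to 123 CPM in the other groups, whereas *Nr2f2* lies between that of *Myl2*-high and *Shox2*/*Vsnl1*-high cells.

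The 2 markers given for these cells besides *Nppa* were not used by the rule. The study had named both, together with *Nppa*, for a cardiomyocyte cluster of these same day 11 data. Their levels here are therefore a description and not an independent check. They are *Myh6* (GRCm38.p6, chr14:54941921-54968017) and *Itga6* (chr2:71786886-71858427). *Myh6* stood at 3759 CPM (3711 to 3808) against 2164 CPM (2149 to 2179.6) in the other cardiomyocytes, 1.74-fold higher (1.71 to 1.76). In single cells its level had a median of 36.4 per 10000 UMIs, against 14.0 in *Nppa*-negative, *Myl2*-low, 12.8 in *Myl2*-high and 16.1 in *Shox2*/*Vsnl1*-high cells. The middle 50% of the cells, 17.2 to 57.1 per 10000, overlapped that of each other group, of which the highest reached 33.2. *Itga6* stood at 258 CPM (245 to 271), 2.41-fold higher than in the other cardiomyocytes (2.27 to 2.56). Against each group alone it was 2.44-fold, 2.98-fold and 2.10-fold higher in the same order. *Myh6* was 1.94-fold and 1.94-fold higher than in the *Nppa*-negative, *Myl2*-low and the *Myl2*-high cells. Against *Shox2*/*Vsnl1*-high cells it was 1.46-fold higher (1.44 to 1.49), short of the limit. In the 48 *Shox2*/*Vsnl1*-high cells that held *Nppa* it stood at 3777 CPM, the level of the *Nppa*-positive, *Myl2*-low cells.

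In the natriuretic peptide pathway 3 of 14 listed genes could be counted, and 1 was higher. This was *Pam*, an enzyme that amidates peptides and is the main membrane protein of atrial secretory granules. *Pam* stood at 825 CPM (802 to 848) against 417, 497 and 464 CPM in the 3 other groups, taken from here on in the order *Nppa*-negative, *Myl2*-low, then *Myl2*-high, then *Shox2*/*Vsnl1*-high. It had UMIs in 157 of 159 cells. *Corin*, the protease that cuts the precursor of the hormone, stood at 15.8 against 12.3 CPM in the other cardiomyocytes, under the limit of 20 CPM, and *Furin*, a protease of the secretory route, at 36 against 34.2 CPM. *Nppb*, the neighbouring gene that encodes brain natriuretic peptide and ends 13517 bases before *Nppa* on chromosome 4, stood at 7.66 CPM (5.63 to 10.2) from 25 cells, against 1.10 CPM, again under the limit for counting. The granule enzyme was thus the only counted gene of the pathway past the limit.

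Of integrins and laminins, which anchor cells to the basement membrane, 11 of 26 listed genes were counted, 2 were higher and none lower. The second besides *Itga6* was *Lama5*, the alpha 5 chain of laminin and a partner in ligands that alpha 6 integrins bind, at 45.0 CPM (39.8 to 50.6) against 23.0, 15.8 and 19.2 CPM. The common beta 1 chain *Itgb1* stood at 230.0 against 231 CPM, so the alpha chain was higher while its common beta partner was at the same level. *Lamb2* and *Lama4* stood at 49.1 against 32.6 CPM and 31.3 against 21.3 CPM, both short of the limit. The median log2 ratio of the list was 0.22.

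Of the 30 genes listed for atria, 19 were counted: 6 were higher, 1 lower and 12 neither, with a median log2 ratio of 0.50. The 6 were *Itga6*, *Myh6*, *Sln*, *Pam*, *Cav1* and *Stard10*, of which *Itga6* and *Myh6* were markers already known from these data. *Cav1*, the coat protein of caveolae, stood at 137 CPM against 64.9, 18.7 and 143 CPM, so it was far above *Myl2*-high cells and near *Shox2*/*Vsnl1*-high cells. *Stard10*, a lipid transfer protein, stood at 253 CPM against 117, 97.4 and 248 CPM. The lower gene was *Clu*, at 58.0 CPM. Against *Shox2*/*Vsnl1*-high cells, 3 of 20 counted atrial genes were higher and 3 lower, with a median log2 ratio of 0.10, beside 2.15% of all genes higher and 3.57% lower in that comparison. Against *Myl2*-high cells 13 of 19 were higher and 0 lower, beside 2.42% and 1.39% of all genes. *Itga6*, *Sln* and *Pam* were past the limit against all 3 groups.

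Several atrial genes were near the level of the pooled other cardiomyocytes. *Myl4*, the atrial essential light chain, stood at 9332 against 7061 CPM, 1.32-fold, and *Mybphl*, a myosin-binding protein of atria, at 177 against 120.4 CPM. The nuclear receptor genes *Nr2f1* and *Nr2f2*, which give atrial identity, stood at 241 against 203 CPM and 113 against 125 CPM. This pooled level hid a difference between groups. *Nr2f2* was 3.28-fold higher than in *Myl2*-high cells (2.87 to 3.76) and 1.64-fold lower than in *Shox2*/*Vsnl1*-high cells. *Bmp10*, a growth factor of trabeculae and the right atrium, stood at 7.82 CPM (5.77 to 10.4) from 31 cells, against 1.56 CPM, under the limit for counting.

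Of the 24 genes listed for ventricles, 14 were counted: 1 was higher, 5 lower and 8 neither, with a median log2 ratio of -0.28. The 5 were *Myh7*, *Pln*, *Lbh*, the transcription factor gene *Irx4* at 6.68 against 20.2 CPM and the phosphodiesterase gene *Mpped2* at 32.1 against 85.5 CPM. The higher gene was *Ckm*, the muscle creatine kinase, at 21.8 against 3.68 CPM, but 1 cell held 26.1% of its 134 UMIs. Against *Myl2*-high cells alone, 13 of 18 counted genes were lower, among all 5528 genes counted there of which 134 were higher (2.42%) and 77 lower (1.39%). Those cells were chosen for *Myl2*, so this contrast, and the pooled one that includes them, was in part set by the rule. Against *Nppa*-negative, *Myl2*-low cells 2 of 13 counted genes were higher and 2 lower, beside 1.36% and 1.32% of all genes, with a median log2 ratio of 0.14. Against *Shox2*/*Vsnl1*-high cells 6 of 13 were higher and 1 lower, beside 2.15% and 3.57% of all genes, with a median of 0.48. The direction of the ventricular list thus turned with the group compared. *Myl3*, the ventricular essential light chain, was 3.37-fold lower than in *Myl2*-high cells and 3.88-fold higher than in *Shox2*/*Vsnl1*-high cells, at 1765 CPM. *Hey2*, a transcriptional repressor of ventricular myocardium, stood at 2.93 against 38.7 CPM in *Myl2*-high cells.

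Of the 22 genes listed for the sinus venosus and node, 15 were counted: 0 were higher and 8 lower, with a median log2 ratio of -0.59. The growth factor gene *Bmp4* stood at 15.5 against 75.8 CPM and the progenitor factor *Isl1* at 7.01 against 24.2 CPM. The pacemaker channel gene *Hcn4* stood at 33.4 against 73.4 CPM. In the pooled comparison these genes of pacemaker and venous identity were thus low together. Also lower were the calcium channel gene *Cacna1d*, the adhesion gene *Ntm*, the growth factor gene *Ptn* and the nitric oxide receptor gene *Gucy1a1*, which were 1.69-fold, 1.57-fold, 1.71-fold and 1.64-fold lower. The pooled cells include *Shox2*/*Vsnl1*-high cells, chosen for 2 genes of this list. Against *Nppa*-negative, *Myl2*-low cells, where the rule set no such difference, 3 of 14 counted genes were lower and 0 higher, against the same 1.32% and 1.36% of all genes. The 3 were *Isl1*, *Bmp4* and *Ptn*. Compared with *Myl2*-high cells the list went the other way. There 2 of 12 counted genes were higher and 0 lower, beside 2.42% and 1.39% of all genes, with a median log2 ratio of 0.19.

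**Figure D3:**
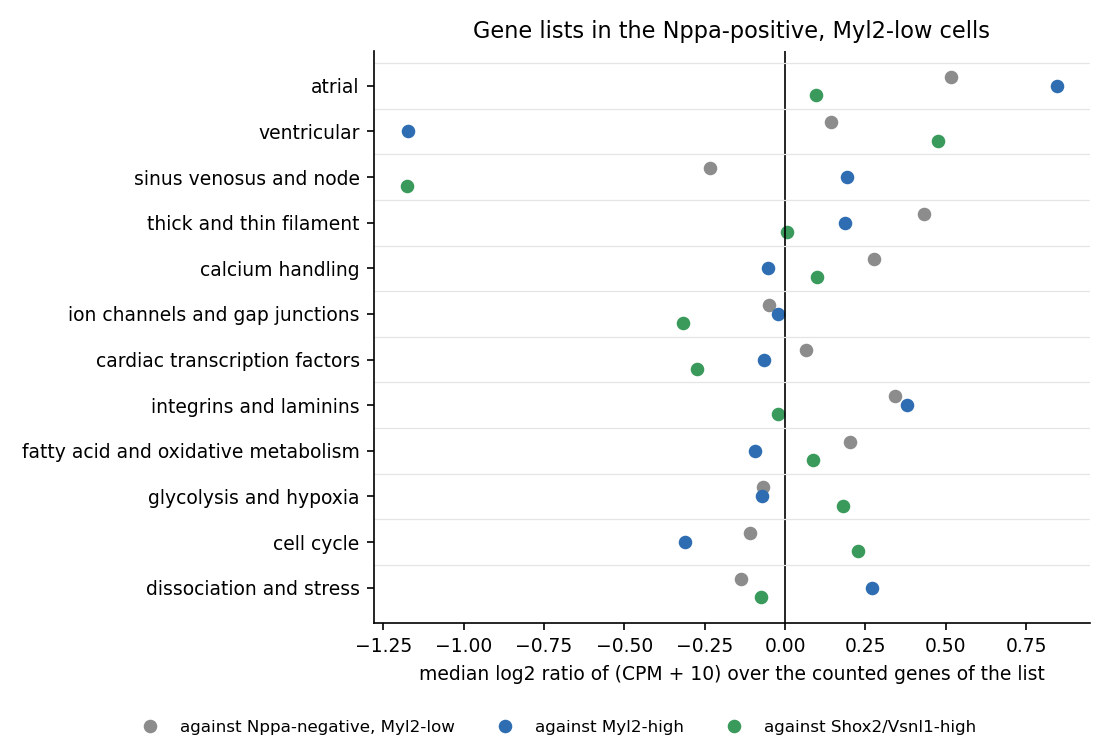
Median log2 ratio of CPM plus 10 (horizontal) over the counted genes of 12 gene lists (vertical), in *Nppa*-positive, *Myl2*-low cells against each other group; colours are the group compared with, and medians carry no error bar. The atrial list lies at 0.52, 0.85 and 0.10, the ventricular list at -1.17 against *Myl2*-high cells, and the sinus venosus and node list at -1.18 against *Shox2*/*Vsnl1*-high cells.

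The closest comparison was with the 549 *Nppa*-negative, *Myl2*-low cells, which met every limit but that on *Nppa*. Of 5602 genes counted, 76 were higher (1.36%) and 74 lower (1.32%). The 5 highest ratios among genes of 100 CPM or more were those of *Mest*, *Itga6*, *Sln*, *Casq1* and *Ankrd1*, with 216, 106, 134, 287 and 88.2 CPM in the *Nppa*-negative cells. The 5 lowest were those of *Dlk1*, a membrane protein of immature cells, at 44.0 against 119.5 CPM, then *Ptn*, *Meg3*, *Acta2* and *Prnp*. In the atrial list 9 of 19 counted genes were higher and 1 lower. Besides the 6 named above, these were the potassium channel gene *Kcnj3* at 22.0 against 9.87 CPM, *Angpt1* (angiopoietin 1) at 111 against 65.5 CPM, and *Mybphl*. A higher share of atrial genes than of all genes was past the limit. The 9 include *Itga6* and *Myh6*, which the study had named from these same data, so part of this excess was set in advance. The list of thick and thin filament genes was also higher here, with a median log2 ratio of 0.43 beside 0.52 for the atrial list. The deeper sequencing of the *Nppa*-positive cells moved with these values, and its part was not tested.

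Against *Myl2*-high cells the 5 highest ratios were those of *Sln*, *Cav1*, *Casq1*, *Calca* and *Nr2f1*. *Sln* stood at 322 against 30.9 CPM, 10.4-fold higher, and *Calca*, which encodes calcitonin and its related peptide, at 130.1 against 38.2 CPM. The 5 lowest were *Myh7*, *Mpped2*, *Pln*, *Spink4* (a secreted protease inhibitor) and *Myl3*, genes that mark the ventricle apart from *Spink4*. Against *Shox2*/*Vsnl1*-high cells 123 of 5720 counted genes were higher (2.15%) and 204 lower (3.57%). The 5 highest there were *Myl3*, *Mest*, *Casq1*, *Mt1* (a metal-binding metallothionein) and *H2-K1* (a class I histocompatibility gene). The 5 lowest were *Tagln*, a smooth muscle actin-binding protein, at 7.5 against 187 CPM, then *Pnmt*, *Bmp4*, *Gal* (the neuropeptide galanin) and *Acta2*. Both groups were chosen for high levels of their own marker genes, so part of these contrasts was set by the rule.

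Genes of the sarcomere were compared as a list and by pairs of isoforms. Of 26 counted genes of thick and thin filaments, 1 was higher (*Myh6*) and 3 lower (*Myh7*, *Acta2* and *Tnnt1*), with a median log2 ratio of 0.15. Against *Nppa*-negative, *Myl2*-low cells 4 of 26 were higher and 2 lower, beside 1.36% and 1.32% of all genes. The median was 0.43 and the summed level 61854 against 46496 CPM. The list was thus higher there in median and sum, with genes past the limit both ways. The share of *Myh6* in the UMIs of *Myh6* plus *Myh7* was 90.8% in the *Nppa*-positive, *Myl2*-low cells, 74.3% in *Nppa*-negative, *Myl2*-low cells, 42.2% in *Myl2*-high cells and 91.6% in *Shox2*/*Vsnl1*-high cells. In single cells with 10 or more UMIs of the pair, its median was 96.2%, with a lowest of 14.9%, and 147 of 154 cells were over 50%. Nearly every cell thus carried mostly *Myh6* RNA of this pair, as *Shox2*/*Vsnl1*-high cells also did. Most *Nppa*-negative, *Myl2*-low cells did so too, with a median of 92.3% and 345 of 436 cells over 50%. Of the *Myl2*-high cells, 104 of 324 were over 50%, so a majority of *Myh6* was not limited to *Myl2*-low cells. The share of *Myl4* in *Myl4* plus *Myl3* was 84.1%, against 84.5%, 50.5% and 94.8%. The slow skeletal troponin T gene *Tnnt1*, used early in the heart, stood at 92.6 against 172 CPM, while cardiac *Tnnt2* stood at 6040.3 against 5588 CPM.

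In calcium handling 2 of 18 counted genes were higher (*Sln* and *Casq1*) and 2 lower (*Pln* and *Cacna1d*). The calcium pump gene itself, *Atp2a2*, stood at 1360.3 against 1047 CPM, and the sodium-calcium exchanger gene *Slc8a1* at 755 against 540.2 CPM, both short of the limit. The 2 pump inhibitors therefore lay on opposite sides. The share of *Sln* in *Sln* plus *Pln* was 62.5% (60.8 to 64.2%), against 33.4%, 2.86% and 51.8% in the other groups. *Sln* was patchy: 76 of 159 cells held no UMI of it, and the highest cell held 35.8 per 10000. Of 12 counted genes of ion channels and gap junctions, 0 were higher and 2 lower, among them *Hcn4*. *Gja1* (connexin 43) stood at 37.3 against 22.5 CPM.

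Against the pooled other cardiomyocytes few transcription factors passed the limit. Of 21 counted cardiac factors and cofactors 1 was higher, *Ankrd1*, and 2 were lower, *Isl1* and *Irx4*, with a median log2 ratio of -0.02. The groups taken alone gave other counts. Against *Myl2*-high cells 4 of 24 were higher and 6 lower, beside 2.42% and 1.39% of all genes. Against *Shox2*/*Vsnl1*-high cells 1 of 23 was higher and 6 lower, beside 2.15% and 3.57% of all genes. Against *Nppa*-negative, *Myl2*-low cells it was 1 of 20 each way, beside 1.36% and 1.32% of all genes. The genes of the factors known to act on the *Nppa* promoter were at like levels: *Nkx2-5* at 139 against 131 CPM, *Gata4* at 34.2 against 39.6 CPM and *Tbx5* at 55.3 against 56.2 CPM. The ratio was 1.06 for *Nkx2-5* (0.983 to 1.14), 0.865 for *Gata4* and 0.983 for *Tbx5* (0.873 to 1.10). The pooled *Tbx5* level again lay between groups, with 40.9, 35.2 and 87.9 CPM. *Tbx3*, a T-box repressor of the nodes that keeps *Nppa* off there, stood at 7.82 CPM against 10.7, 14.5 and 31.4 CPM, and was counted only against *Shox2*/*Vsnl1*-high cells, where it was 4.02-fold lower. The Notch target *Hey1*, used in atria, stood at 23.0 against 12.9 CPM, short of the limit on CPM plus 10. The retinoic acid pathway, which directs atrial fate, had 6 counted genes and none past the limit in the pooled comparison. Against *Myl2*-high cells 4 of 6 were higher and 0 lower, beside the same 2.42% and 1.39% of all genes, with a median log2 ratio of 0.73. Among the 4 were *Nr2f1*, *Nr2f2* and the carrier gene *Crabp1*. Of the *Crabp1* UMIs, 57.4% were in 1 cell. Against *Shox2*/*Vsnl1*-high cells 2 of 7 were higher and 1 lower, beside the same 2.15% and 3.57% of all genes.

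In the pooled comparison lists on cell state were almost flat. None of 24 counted genes of glycolysis and hypoxia, 20 of the cell cycle and 14 of dissociation and stress passed the limit either way, with median log2 ratios of -0.0054, -0.073 and -0.0044. For example, the proliferation marker *Mki67* stood at 63.6 against 59.8 CPM and the glycolytic gene *Ldha* at 2579 against 2508 CPM. Of 20 counted genes of fatty acid and oxidative metabolism only *Ckm* was higher and none was lower. By group, 3 of 14 stress genes were higher and 0 lower than in *Shox2*/*Vsnl1*-high cells, beside 2.15% and 3.57% of all genes. In *Nppa*-negative, *Myl2*-low cells it was 1 each way, and 1 was higher than in *Myl2*-high cells. The cell cycle medians were -0.11, -0.31 and 0.23 in the usual order, with 1 of 20 genes lower than in *Myl2*-high cells. Of 6 counted genes of the outflow tract and atrioventricular canal none passed the limit in the pooled comparison. The groups taken alone showed 2 of 7, 2 of 6 and 1 of 5 counted genes lower, in the usual order, and 0 higher. The shares of all genes lower there were 1.32%, 1.39% and 3.57%.

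Markers of other cell types moved with some of these values. Of 4 counted smooth muscle genes 3 were lower, *Acta2*, *Tagln* and *Cald1*, and the summed level of the list was 1054 CPM, against 599 to 4447 CPM in the other groups. Of the defining markers of that list, *Cnn1* stood at 179 against 150.3 CPM and *Myh11* at 0.489 CPM, against 3.16, 0.436 and 16.7 CPM. *Acta2* is shared with the sarcomere list, and the part of smooth muscle cells in these values was not tested. Of 6 counted endothelial genes 5 were higher, and the list summed to 397 CPM against 314, 103 and 174 CPM. Against the *Nppa*-negative, *Myl2*-low cells alone none of these genes passed the limit. This excess sat in few cells. The defining markers *Pecam1* and *Cdh5* were at 0 in 147 of 159 cells and reached 3 UMIs in 8, *Cdh5* was found in 9 cells and *Ctla2a*, another vessel gene, in 16. Of 4 counted neural genes 2 were higher, *Fabp7* and *Ina*, with 51.4% and 70.7% of their UMIs in 1 cell each. The skeletal muscle list summed to 64.9 against 27.9 CPM, and its 1 counted gene, *Ckm*, was higher against each group. Its defining markers *Myod1* and *Myog* reached 3 UMIs in 1 of 159 cells, and 1 cell held 74 of the 77 *Myog* UMIs, named here after the values were seen. *Casq1*, *Sln* and *Ckm* are also used in skeletal muscle, and the part of such cells was not tested. In the macrophage and blood list 1 cell held 73 of the 77 *C1qb* UMIs, also named after the values were seen. Of 6 counted mesenchymal genes 1 was lower, the collagen gene *Col1a1*. Without the 12 cells that held a *Pecam1* or *Cdh5* UMI, and the like cells of the other groups, *Myh6* was 1.84-fold and *Itga6* 2.62-fold higher, so both differences were as large without them.

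Levels of other genes were compared between cells of low and high *Nppa* within the set. The 159 cells were split into 59 with under 1 *Nppa* UMI per 10000, 57 with 1 to 10 and 43 with 10 or more, with median depths of 38976, 26775 and 27987 UMIs. In that order *Casq1* stood at 443, 737 and 992 CPM, *Mest* at 391, 630.0 and 890.0 CPM and *Sln* at 180.0, 392 and 498 CPM. *Stard10* stood at 176, 271 and 373 CPM and *Ankrd1* at 157, 169.6 and 346 CPM. *Itga6* and *Myh6* were higher in the 2 upper strata, where their levels were alike: *Itga6* stood at 189.9, 315 and 316 CPM and *Myh6* at 3075, 4333 and 4352 CPM. In the other direction *Pln* stood at 271, 141 and 111 CPM, *Myh7* at 491, 323 and 246 CPM and *Clu* at 84.7, 42.4 and 27.7 CPM. *Isl1* stood at 11.7, 4.06 and 1.89 CPM. The factor genes *Nkx2-5* and *Tbx5* stayed near one level, at 129.7, 159 and 133 CPM and 48.2, 62.1 and 60.3 CPM. Cells that entered the set with little *Nppa* thus lay nearer to the *Nppa*-negative cells, at 287 CPM of *Casq1* and 266 CPM of *Pln*. The endothelial list summed to 658, 99.9 and 253 CPM, so its excess lay mostly in the lowest stratum, which is also the deepest. The mesenchymal list summed to 510.2, 325 and 350.1 CPM and the macrophage and blood list to 101, 1.16 and 2.51 CPM. Other lists were highest in the top stratum instead. The neural list summed to 231, 170 and 338 CPM and the epicardial list to 71.6, 49.4 and 143 CPM. Endoderm genes summed to 17.01, 13.4 and 74.2 CPM. Skeletal muscle genes, at 78.3, 33.1 and 75.4 CPM, were lowest in the middle stratum, so no stratum was free of such genes. The sarcomere list as a whole stood at 52227, 69105 and 71084 CPM, so *Myh6* was not alone in being lowest there. The part of depth and of other cells in the differences between strata was not tested.

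**Figure D4:**
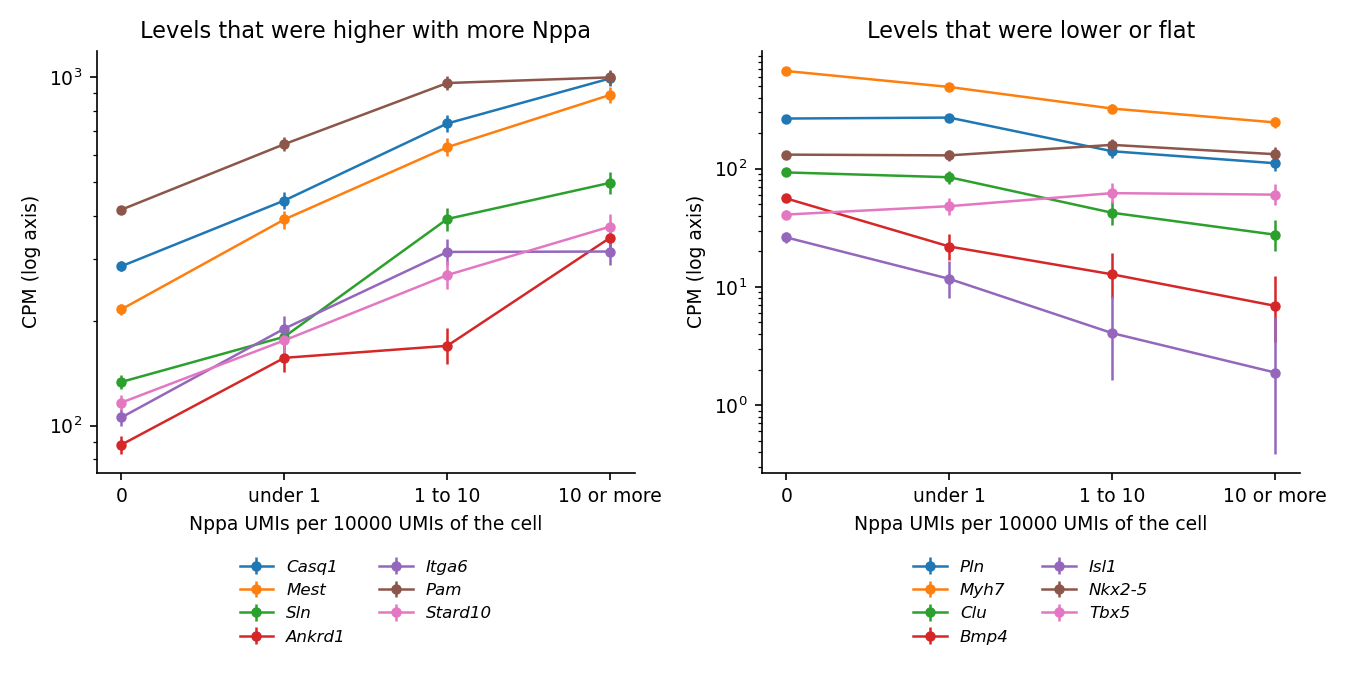
CPM (vertical, log axes) of 14 genes in *Nppa*-negative, *Myl2*-low cells (0) and in the 3 strata of the 159 *Nppa*-positive, *Myl2*-low cells by *Nppa* UMIs per 10000; points are summed levels and bars 95% Poisson intervals, which cover counting error only. *Casq1* goes from 287 CPM at 0 to 992 CPM at 10 or more, *Isl1* from 26.2 to 1.89 CPM, and *Nkx2-5* lies between 129.7 and 159 CPM throughout.

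How far the cells formed a group of their own was described by nearest neighbours. Cells were thinned to 5000 UMIs, the 7 genes of the rule, mt- and ribosomal protein genes were left out, and the 20 nearest neighbours of each cell were found in 20 principal components of 2000 variable genes. Of the neighbours of the *Nppa*-positive, *Myl2*-low cells, 29.7% were cells of the same set, which made up 10.6% of the cells compared. *Nppa*-negative, *Myl2*-low cells were the larger part with 38.3%, and *Myl2*-high and *Shox2*/*Vsnl1*-high cells gave 12.2% and 19.7%. In the same order these groups made up 34.8%, 22.0% and 32.6% of the cells compared. Of the neighbours of *Myl2*-high and *Shox2*/*Vsnl1*-high cells, 65.1% and 61.5% were of their own group. The share of own neighbours was 21.2%, 31.7% and 39.4% from the lowest to the highest *Nppa* stratum. Most neighbours of the set were thus cells of other groups, and its share of own neighbours was higher where *Nppa* was high. The groups differ in size, so these raw shares do not rank how tight the groups were.

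**Figure D5:**
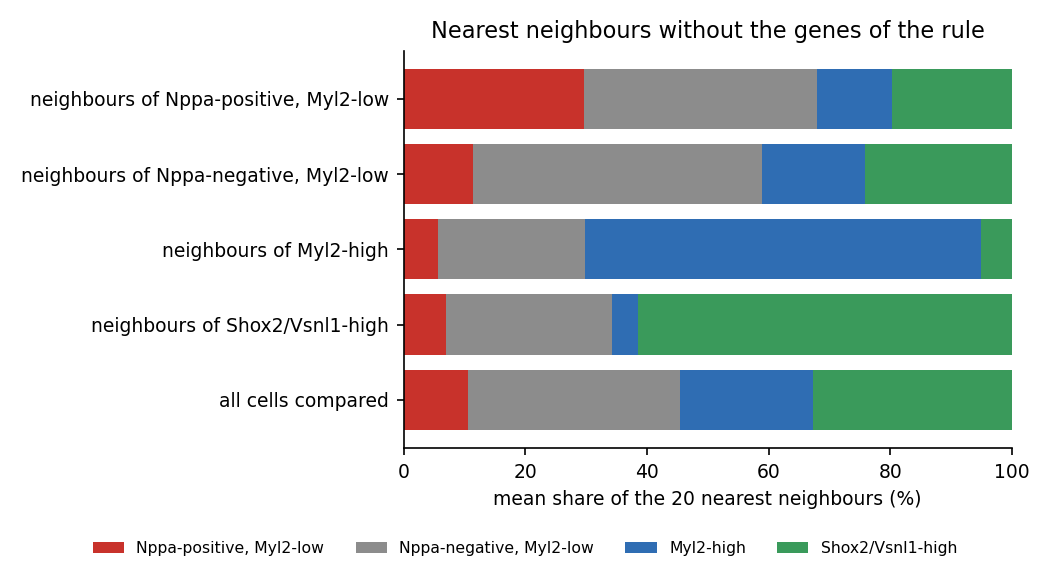
Mean share (horizontal, %) of the 20 nearest neighbours that belong to each of the 4 groups (colours), for the cells of each group, with the make-up of all 1450 cells compared in the lowest bar. Own neighbours are 29.7% for *Nppa*-positive, *Myl2*-low cells and over 60% for *Myl2*-high and *Shox2*/*Vsnl1*-high cells. These groups made up 10.6%, 22.0% and 32.6% of the cells compared.

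Clustering of the same 1450 cells gave 12 clusters, and none held only *Nppa*-positive, *Myl2*-low cells. The cluster with the most of them had 38 among 101 cells (37.6%) and was led by *Platr26* (a long non-coding RNA), *Itga6*, *2610204G07Rik*, *Cmya5* (a sarcomere-associated protein) and *Sln*. A cluster of 158 cells led by *Sln* and *Casq1* held 33 of them, and the largest cluster, of 250 cells and led by *Myh7*, held 28. A further 20 were in a cluster led by genes of cell division such as *Cenpf* and *Top2a*. Of the cells with 10 or more *Nppa* UMIs per 10000, 31.7% were in the cluster led by *Platr26* and 29.3% in that led by *Sln*. Clusters of 112, 107 and 81 cells, led by *Wnt2*, *Mstn* and *Tagln*, held none. Cluster membership was found on the same cells, so leading genes are a description and not a test.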

How the data were processed

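Single-cell libraries of gastruloids (10x Chromium, 3 prime chemistry) were made by the authors at days 4, 5, 6 and 11, with 1 library per day. The deposited values are raw UMI counts per gene and barcode, made by the authors with Cell Ranger, for which the submitters' processing notes list version 3.1.0 and the build mm10. The header of the day 11 matrix names software version 6.0.1 and those of the other matrices 3.1.0. Barcodes called as cells had 500 or more UMIs in every file.

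Cells were filtered and assigned by the limits given with the results, in Python 3.11.15 with numpy 2.4.6, scipy 1.17.1 and pandas 2.3.3. Members, lists and tests were chosen with earlier results of these data known. UMIs were summed over the cells of a set and divided by their total (CPM). Intervals are exact Poisson for CPM, Clopper-Pearson for shares and conditional binomial for ratios. They treat UMIs and cells as independent. Since cells are not replicates and each day had 1 library, no test was made. Total counts per library were 149169498 to 236714826 UMIs.

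Genes were named by a fixed rule: the rule genes and given markers, genes of 23 lists, the 10 highest and 10 lowest ratios of CPM plus 10 against the other cardiomyocytes, and 5 each way against each group, among genes of 100 CPM or more in the set where they were higher. Cells were thinned to 5000 UMIs in 1 random draw. Principal components and nearest neighbours used scikit-learn 1.9.0, and clusters leidenalg 0.10.2 at resolution 1. Doublets were scored against 2 simulated mixtures per cell and kept, with an alternative without them. The ratio and call steps were tested on simulated data with known changes. Promoters were read from the RefSeq table for GRCm38.p6, which had 1 entry for *Nppa* and 2 for *Myl2*. Alternatives for the limits, depth, pseudocount, filter and fold were run. Some genes of the lists are counted but not reported here by name.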

Additional observations from a re-analysis of the deposited data

How the results depend on the processing

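The alternatives were run for the share, the *Myh6* and *Itga6* ratios and the 2 counts of genes, and both ratios stayed above 1 in all of them. The share of cardiomyocytes, 10.3%, ran from 4.47 to 13.7% over 13 settings, the *Myh6* ratio, 1.74, from 1.65 to 2.01 over 15 and the *Itga6* ratio, 2.41, from 2.24 to 2.93 over 15. The share was 13.7% with *Myl7* at 100 or more per 10000, 8.04% with *Nppa* at 2 or more UMIs, 6.48% with *Nppa* at 1 or more per 10000, and 8.68% and 12% with *Shox2* plus *Vsnl1* under 3 and under 12 per 10000. The *Myh6* ratio was 1.67 with *Myl7* at 100 or more and with *Shox2* plus *Vsnl1* under 3, 1.69 with *Tnni3* plus *Ryr2* at 5 or more UMIs, 1.83 with *Nppa* at 2 or more UMIs, 1.94 with *Nppa* at 1 or more per 10000, 1.85 and 1.65 with *Myl2* under 10 and under 40 per 10000, 1.88 without high doublet scores, 2.01 thinned to 5000 UMIs and 1.98 as a mean of CPM per cell. The *Itga6* ratio was 2.24 with *Myl7* at 100 or more and with *Myl2* under 40, 2.57 with *Nppa* at 2 or more UMIs, 2.79 with *Nppa* at 1 or more per 10000, 2.75 without high doublet scores and 2.93 as a mean per cell. Counts of genes depended most on the settings: 50 higher and 82 lower became 83 and 139 with *Nppa* at 1 or more per 10000, 124 and 235 after thinning, 85 and 127 with a pseudocount of 1 CPM, 26 and 43 at 50 CPM or more, and 16 and 20 at 2-fold. The cause of these shifts was not tested. In 2 alternatives chosen after seeing the data, *Nppa* at 10 or more UMIs gave a share of 4.47%, ratios of 1.95 for *Myh6* and 2.93 for *Itga6* and 100 higher and 136 lower genes, and leaving out cells with a *Pecam1* or *Cdh5* UMI gave ratios of 1.84 and 2.62. No paired analysis was possible because each day had 1 library and no test was made. The limit of 1 *Nppa* UMI favours deep cells, a single UMI admitted 35 of the 159 cells, and 1 library of 1 line cannot give the spread between cultures.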

Other observations

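*Nppa* was not limited to the *Myl2*-low cells. Of 255 day 11 cardiomyocytes with an *Nppa* UMI, 48 were *Myl2*-high and 48 were *Shox2*/*Vsnl1*-high, with median depths of 26314 and 32555.5 UMIs. In the *Myl2*-high cells with *Nppa*, *Itga6* stood at 129 CPM (112 to 148), against 86.6 CPM in all *Myl2*-high cells, and *Pam* at 601 against 497 CPM. In the *Shox2*/*Vsnl1*-high cells with *Nppa*, *Itga6* stood at 210.1 CPM (189 to 232), against 123 CPM in all *Shox2*/*Vsnl1*-high cells, and *Myh6* at 3777 against 2567 CPM. *Casq1*, the calcium store of the sarcoplasmic reticulum, stood at 269 against 148 CPM in the first and at 443 against 282 CPM in the second. These levels lay between those of the group as a whole and the 668 CPM of *Casq1* and 258 CPM of *Itga6* in the *Nppa*-positive, *Myl2*-low cells. The share of *Myh6* in *Myh6* plus *Myh7* was 49.5% and 92.7% in these 2 sets of 48 cells.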
